A study of Morus alba with 35 samples.

Results

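Genes of white mulberry (Morus alba) cell suspensions whose transcript level peaked 12 h after transfer in control flasks were followed in flasks treated with methyl jasmonate and methylated cyclodextrin. The members were chosen from CPM values (a gene's reads divided by all counted reads of its library, times 1000000). The mean of the control libraries at 12 h had to be at least 5 CPM and at least 2 times the control mean at every other time. The control mean at 72 h had to be below 8 CPM, and elicited and control means at 0.5 h had to differ by less than 0.5 on the log2(CPM + 1) scale. Genes in a span of chromosome 8 were left out. The rule gave 31 genes of 31401, and all 31 were among the 20107 genes that passed the filter on low counts, where the high 12 h controls alone were enough to pass. The control means at all 6 times and the elicited mean at 0.5 h thus chose the members and are given as a description, whereas the elicited libraries from 6 to 72 h were not used and could be tested.

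Elicited cells were suspended in medium holding methylated cyclodextrin (50 mM) together with methyl jasmonate (100 µM). They were collected at 0.5 and 6 h with 3 libraries each, and at 12, 24, 48 and 72 h with 4 each. Control cells received the ethanol carrier alone and had 2 libraries at each of these times. All flasks, controls included, held cells of a stem-derived suspension 14 days old that had been filtered, washed with water and placed in fresh medium in the dark, with ethanol at 2.1 µL per mL. A replicate was a flask. The labels do not say if different parent cultures supplied the flasks, and the p-values then rest on variation among flasks, which may be technical. The 34 libraries held 17191217 to 18897243 counts each. Stem origin could not be checked against marker genes, since the deposited table pairs its gene identifiers with no names or products.

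Methyl jasmonate is taken up by plant cells and converted to the jasmonate form that the receptor COI1 recognises. Binding leads to breakdown of JAZ repressors and releases transcription factors such as MYC2, which switch on defence and specialised metabolism. Cyclodextrins are cyclic sugars that enclose hydrophobic molecules such as stilbenes and are used together with methyl jasmonate to raise stilbene output of cultured cells. Moving a culture to fresh medium renews sugar, nutrients and growth regulators and is itself followed by waves of transcript changes. The design of the study asks how the response to elicitation depends on time. For the genes described here, the question is whether elicited cells show the same 12 h maximum and whether they leave it again.

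In elicited cells the median level of the members reached that of the 12 h controls at 12 h and lay between 71.5 and 141% of it from 24 to 72 h, while in controls it dropped away. Each library was summarised by the median over the 31 members of its level as a percentage of the gene's 12 h control mean. In elicited cells this median was 25.9, 32.1 and 26.2% in the libraries of 0.5 h, 35.7, 43.5 and 46.4% in those of 6 h, and 119, 131, 131 and 52.2% in those of 12 h. The 24 h libraries then had 90.1, 105, 83.6 and 73.4%, the 48 h libraries 141, 138, 115 and 115%, and the 72 h libraries 71.5, 73.1, 89.6 and 92.5%. In controls it was 19.8 and 29.4% (0.5 h), 27.5 and 29.5% (6 h), and 98.7 and 101% (12 h). The later control libraries had 21.7 and 21.4% (24 h), 11.1 and 12.1% (48 h), and 6.05 and 9.34% (72 h). From 24 h on, every elicited library lay above every control library on this measure, and the control side of that gap was set by the rule. In bulk RNA, fewer cells of a type and less RNA per cell cannot be told apart.

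**Figure D1:**
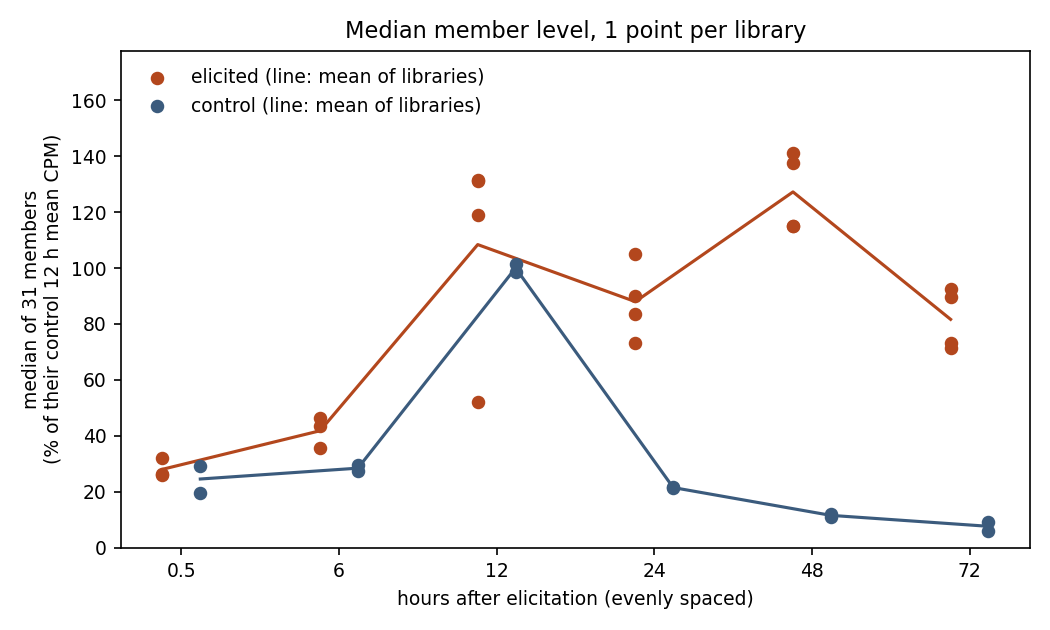
Median over the 31 members of each library's level, as a percentage of the gene's control mean at 12 h (vertical axis), against hours after elicitation (horizontal axis, evenly spaced); each point is a library and lines join group means. Elicited libraries lie between 71.5 and 141% from 24 to 72 h, and control libraries between 6.05 and 21.7%.

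The fourth elicited flask at 12 h stood apart from the other three. Its median of 52.2% compares with 119 to 131% in replicates 1, 2 and 3, and it was the lowest library of its group for 30 of the 31 members. Its library total of 17937431 counts lay within the range of the other libraries. The main counts of changes that start or end at 12 h are therefore also given without it.

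The rise from 6 to 12 h, which the rule required of controls, was also found in elicited cells, where it was not required. Of the 31 members, 21 (67.7%) rose between 6 and 12 h in elicited cells and none was called lower, by edgeR's quasi-likelihood test at a Benjamini-Hochberg adjusted p below 0.05 over all 20107 genes. In the same contrast 23.4% of all genes tested were called higher and 20.3% lower. Among the 21 the log2 fold change ran from 1.03 to 3.50 with a median of 1.60, and over all 31 the median was 1.28, against 0.02 over all genes tested. Without elicited 12 h replicate 4 the number was 25, against 23.8% of all genes tested in that fit. In 12 members all 4 elicited libraries at 12 h lay above all 3 at 6 h, a separation seen in 26.3% of all genes tested. Leaving aside 12 h replicate 4, the groups were separated in this way in 28 members and in 30% of all genes tested.

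A return to a low level after 12 h was the other feature that the rule required of controls. By the rule all 31 control means at 24, 48 and 72 h lay at or below 50% of the 12 h mean. In elicited cells 27 members had a 12 h mean of at least 5 CPM. Of these the mean lay below 50% of the 12 h mean in 3 members at 24 h (1.14% of the 13199 tested genes with such a level), in 2 after 48 h (4%) and in 7 after 72 h (6.18%). Without elicited 12 h replicate 4, again with 27 members at that level, the numbers were 4 (1.12% of genes), 3 (3.28%) and 8 (5.84%). Between 12 and 24 h, 4 of the 31 fell (5.4% of all genes tested) and 2 rose (4.99%). At 48 h against 12 h, 3 were lower (15.1% of all genes) and 10 higher (12.9%), and at 72 h against 12 h, 10 were lower (24.1%) and 5 higher (22.2%; all by the same edgeR test). The lower calls at 24 h became 6 when 12 h replicate 4 was left out (4.84% of all genes in that fit), and 2 when 12 h replicate 2 or 3 or 24 h replicate 3 or 4 was. The 2 higher calls at 24 h became 1 when 12 h replicate 1 or 4 (3.95% of all genes without replicate 4) or 24 h replicate 1 or 2 was left out. With 12 h replicate 4 left out, lower calls were 6 in place of 3 at 48 h (12.3% of all genes in that fit) and 15 in place of 10 at 72 h (21.7%). Higher calls were then 8 at 48 h (10.8%) and 4 at 72 h (21.2%).

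A missed call does not by itself show that a level was kept, so the estimates were also read with their errors. Of the 25 members not called between 12 and 24 h, 18 had a log2 fold change whose span of 2 standard errors either side stayed within 2-fold. The same held for 10 of the 18 not called at 48 h and for 8 of the 16 not called at 72 h. Of all genes not called, 76.5, 75.6 and 73% did so at 24, 48 and 72 h. The shares of members not called were 72, 55.6 and 50%, thus lower at 48 and 72 h. In 4, 5 and 6 of the uncalled members at 24, 48 and 72 h the span reached below 50% of the 12 h level. How many of all genes had such a span is not given here. Without 12 h replicate 4 a span within 2-fold was found for 17 of 24 members at 24 h (70.8%), 13 of 17 at 48 h (76.5%) and 9 of 12 at 72 h (75%). Of all genes not called in that fit, 75.1, 73.7 and 70.8% had such a span. The member shares lay near those of all genes only in the fit without that library, as far as 48 and 72 h are concerned. Of the 27 members with an elicited 12 h mean of at least 5 CPM, 20 kept at least 50% of it through 24, 48 and 72 h. Of all 13199 tested genes with such a level, 93% did so. Keeping the 12 h level was thus common among genes in elicited cells, and less frequent among the members than among all such genes. Without 12 h replicate 4 it was 18 of 27 members and 93.5% of genes, so the member share was again the lower one. The difference in shares was not tested.

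**Figure D2:**
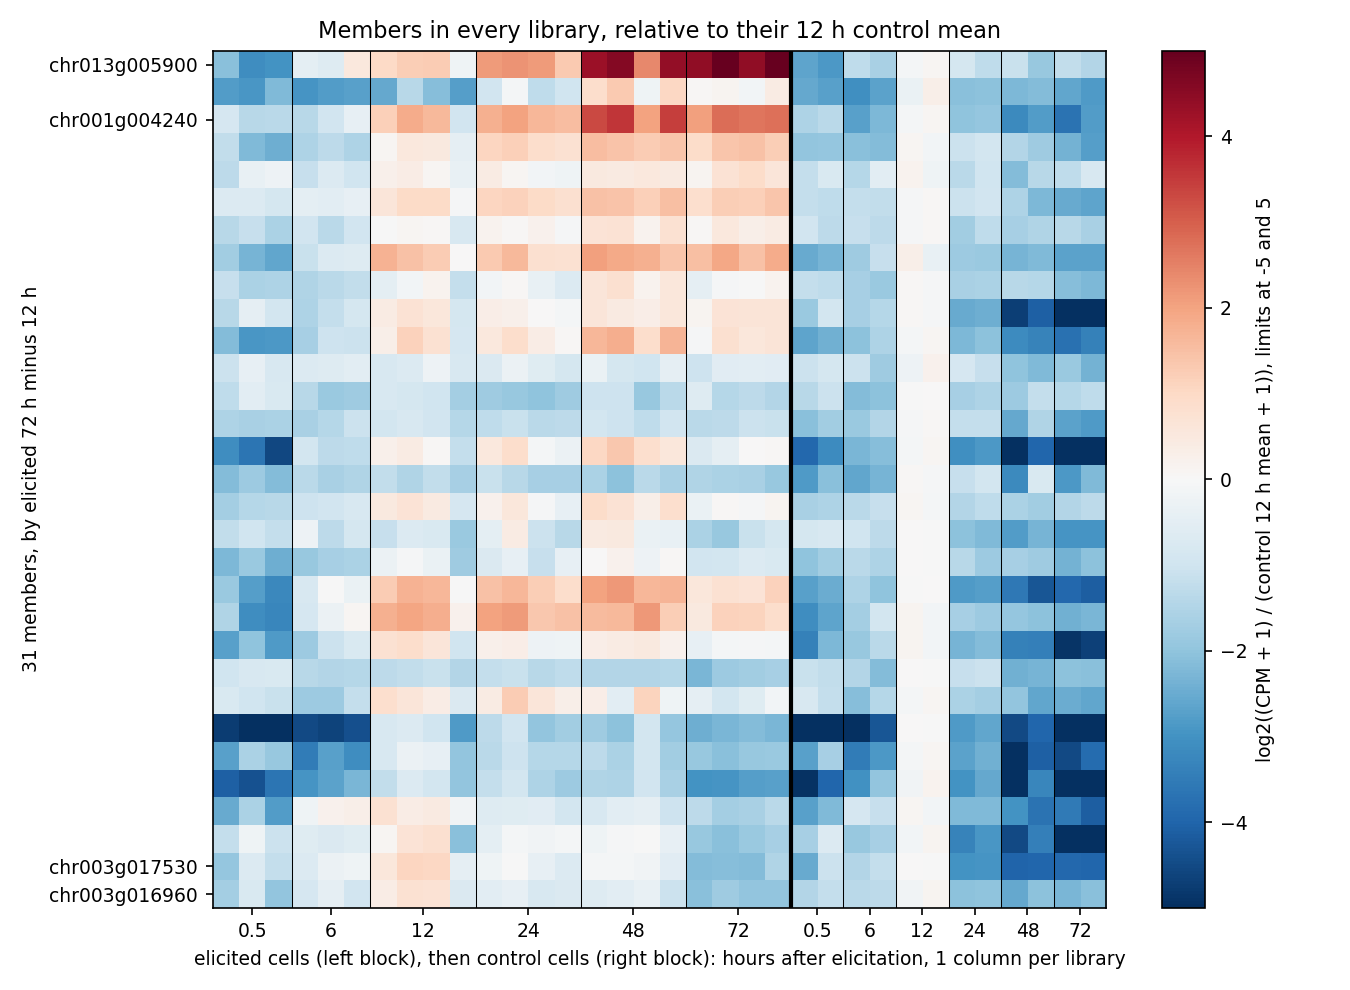
Level of each of the 31 members (rows, ordered by their elicited 72 h minus 12 h log2 fold change) in each of the 34 libraries (columns, elicited block left, control block right, hours below), as log2 of CPM + 1 over the gene's control 12 h mean + 1. Red is above and blue below the 12 h control mean; the control block is pale at 12 h and blue at the other times, and the fourth 12 h elicited column is bluer than the other three.

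Taking both steps together, 14 of the 21 members that rose into 12 h were called lower at none of the later times, where 81.9% of all 4700 genes that rose between 6 and 12 h were lower at none. Without 12 h replicate 4 it was 12 of 25 members, against 78.7% of the 4777 genes that then rose. For the 14, the 72 h minus 12 h log2 fold changes lay between -0.75 and 1.25 with a median of 0.14. The other 7 of the 21 were lower at 72 h, with log2 fold changes between -3.51 and -0.76. Of those 7, 2 were lower at 24, 48 and 72 h alike. The share of all genes that did so is not given here. Without 12 h replicate 4, 12 of the 25 that rose were lower at 72 h, against 19% of the genes that then rose. Among all 4700 genes that rose between 6 and 12 h in elicited cells, 15.8% were lower after 72 h than after 12 h and 36.1% higher. The shares were 3.49% lower and 14.1% higher for 24 h, and 10.1% lower and 24.1% higher for 48 h. Of the 21 members, 7 were lower and 3 higher after 72 h, 2 lower and 1 higher after 24 h, and 2 lower and 7 higher after 48 h. Over the 5 elicited times from 6 to 72 h, 28 of the 31 members changed (quasi-likelihood F test of edgeR, 4 degrees of freedom), against 70.8% of all genes tested. The time of the highest elicited mean was 48 h for 13 members, 12 h for 10, 24 h for 3, 72 h for 3 and 0.5 h for 2, where 6.92, 8.92, 9.83, 32.2 and 23.7% of all tested genes had theirs.

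**Figure D3:**
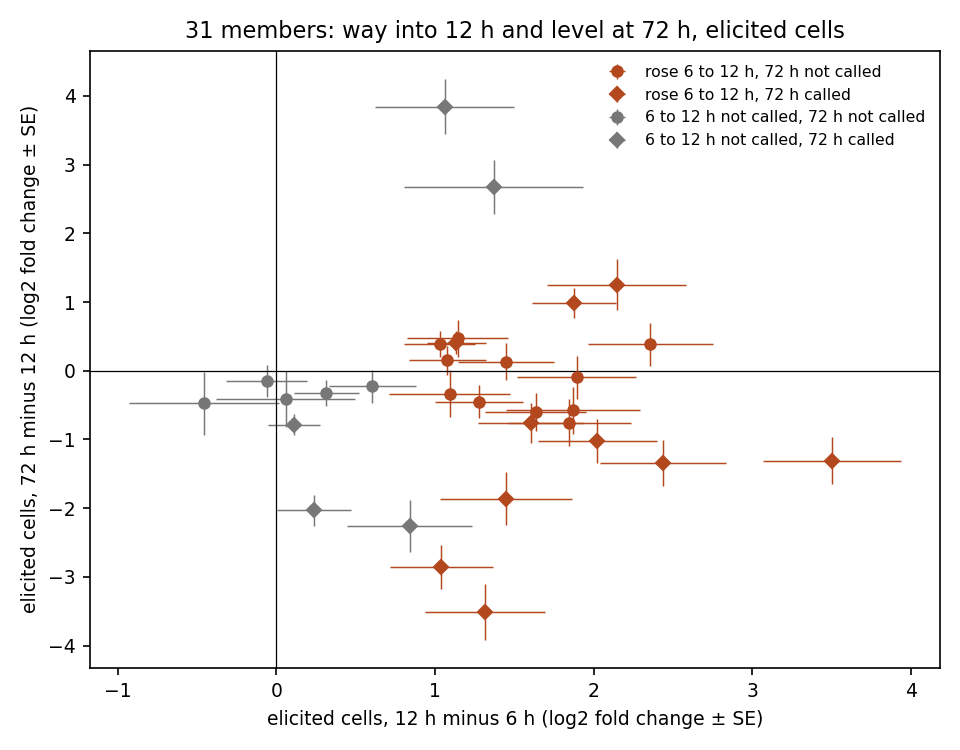
Elicited 12 h minus 6 h (horizontal) against elicited 72 h minus 12 h (vertical) log2 fold change for the 31 members, with standard errors as bars; colour marks the call between 6 and 12 h and shape the call at 72 h. The called rises of 1.03 to 3.50 on the horizontal axis spread on the vertical axis from -3.51 to 1.25.

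A 12 h peak that met the same limits in elicited cells, at least 5 CPM and at least 2 times every other elicited mean, was found in 1 of the 27 members at that level (0.0833% of the 13199 genes). Without elicited 12 h replicate 4 such a peak was found in 2 of 27 members (0.138% of the 13072 genes then at that level). The member added was Mal_HE_154X_1_chr003g017530, described below. The member that met the limits with all libraries was Mal_HE_154X_1_chr003g016960. It has 2 exons on the plus strand of chromosome 3 (20058598 to 20060991) and a summed exon length of 1881 bases. In elicited cells it stood at 1.01, 2.89 and 0.67 CPM at 0.5 h, 2.64, 3.80 and 2.39 CPM at 6 h, and 7.41, 10.03, 9.84 and 3.01 CPM at 12 h. The 24 h libraries had 3.55, 3.91, 2.76 and 2.92 CPM, the 48 h libraries 3.15, 3.51, 4.10 and 2.12 CPM, and the 72 h libraries 0.553, 0.924, 0.679 and 0.685 CPM. Its controls had 0.323 and 0.517 CPM at 72 h, against 4.85 and 6.22 CPM at 12 h. All 4 elicited libraries at 72 h lay below all 4 at 12 h, with a log2 fold change of -3.51 (SE 0.40, adjusted p = 1.08e-07, edgeR quasi-likelihood). Its step from 12 to 24 h was -1.26 (SE 0.34, adjusted p = 0.0161, same test), a call lost without 12 h replicate 2 or 3 or 24 h replicate 3 or 4. The adjusted p ran from 0.00123 to 0.0595 over all 42 alternatives (edgeR and DESeq2).

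The second of the largest declines in elicited cells was that of Mal_HE_154X_1_chr003g017530, a gene of 3 exons and 1671 exon bases on the plus strand of chromosome 3 (20464393 to 20466581). In elicited cells it had 24.9, 32.7 and 34.7 CPM at 6 h and 61.3, 86.5, 83.5 and 29.9 CPM at 12 h. The 24 h libraries had 34.8, 40.1, 30.4 and 24.9 CPM, the 48 h libraries 38.4, 37.9, 36.4 and 27.0 CPM, and the 72 h libraries 8.29, 8.48, 8.37 and 13.9 CPM. Controls had 40.9 and 40.5 CPM at 12 h, 4.31 and 4.37 CPM at 24 h and 1.72 and 1.67 CPM at 72 h. The 24 and 48 h libraries of elicited cells overlapped, and the 72 h libraries lay below all other elicited libraries from 6 h on. The log2 fold change at 72 h against 12 h was -2.86 (SE 0.32, adjusted p = 7.78e-08, edgeR quasi-likelihood).

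At the other end, Mal_HE_154X_1_chr013g005900 climbed on after 12 h in elicited cells. It is a gene with a single exon of 1653 bases on the minus strand of chromosome 13 (5771651 to 5773303). Elicited cells had 6.13, 5.50 and 13.6 CPM at 6 h, 19.2, 22.8, 23.4 and 7.58 CPM at 12 h, and 43.2, 46.6, 43.3 and 23.7 CPM at 24 h. At 48 h they had 193, 239, 52.5 and 209.7 CPM and at 72 h 215, 356, 219 and 339 CPM. Controls had 3.34 and 2.70 CPM at 72 h, against 8.51 and 9.66 CPM at 12 h. The 72 and 12 h groups did not overlap in either treatment, and the elicited log2 fold change at 72 h against 12 h was 3.84 (SE 0.40, adjusted p = 2.54e-08, edgeR quasi-likelihood). Its rise from 6 to 12 h missed the threshold, at 1.06 (SE 0.44, adjusted p = 0.0509, same test), and passed it in 10 of 42 alternatives. One of these was without 12 h replicate 4, where it was 1.33 (adjusted p = 0.0101, edgeR; 0.00113 to 0.199 over the alternatives).

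A further increase was also found for Mal_HE_154X_1_chr001g004240, with 2 exons and 1686 exon bases on the minus strand of chromosome 1 (4631186 to 4633216). In elicited cells it had 9.39, 13.3 and 19.5 CPM at 6 h, 60.9, 98.8, 82.4 and 13.0 CPM at 12 h, and 92.4, 109, 86.1 and 78.0 CPM at 24 h. It had 266, 322, 111 and 301 CPM at 48 h and 114, 189, 172 and 186 CPM at 72 h. Controls had 1.13 and 2.99 CPM at 72 h, against 24.3 and 28.4 CPM at 12 h. The rise from 6 to 12 h was 2.14 (SE 0.44, adjusted p = 0.000252) and the change from 12 to 72 h 1.25 (SE 0.37, adjusted p = 0.00697, edgeR quasi-likelihood). Without elicited 12 h replicate 4, the lowest library at that time, the 72 h log2 fold change was 0.91, the smallest value with any single library left out.

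**Figure D4:**
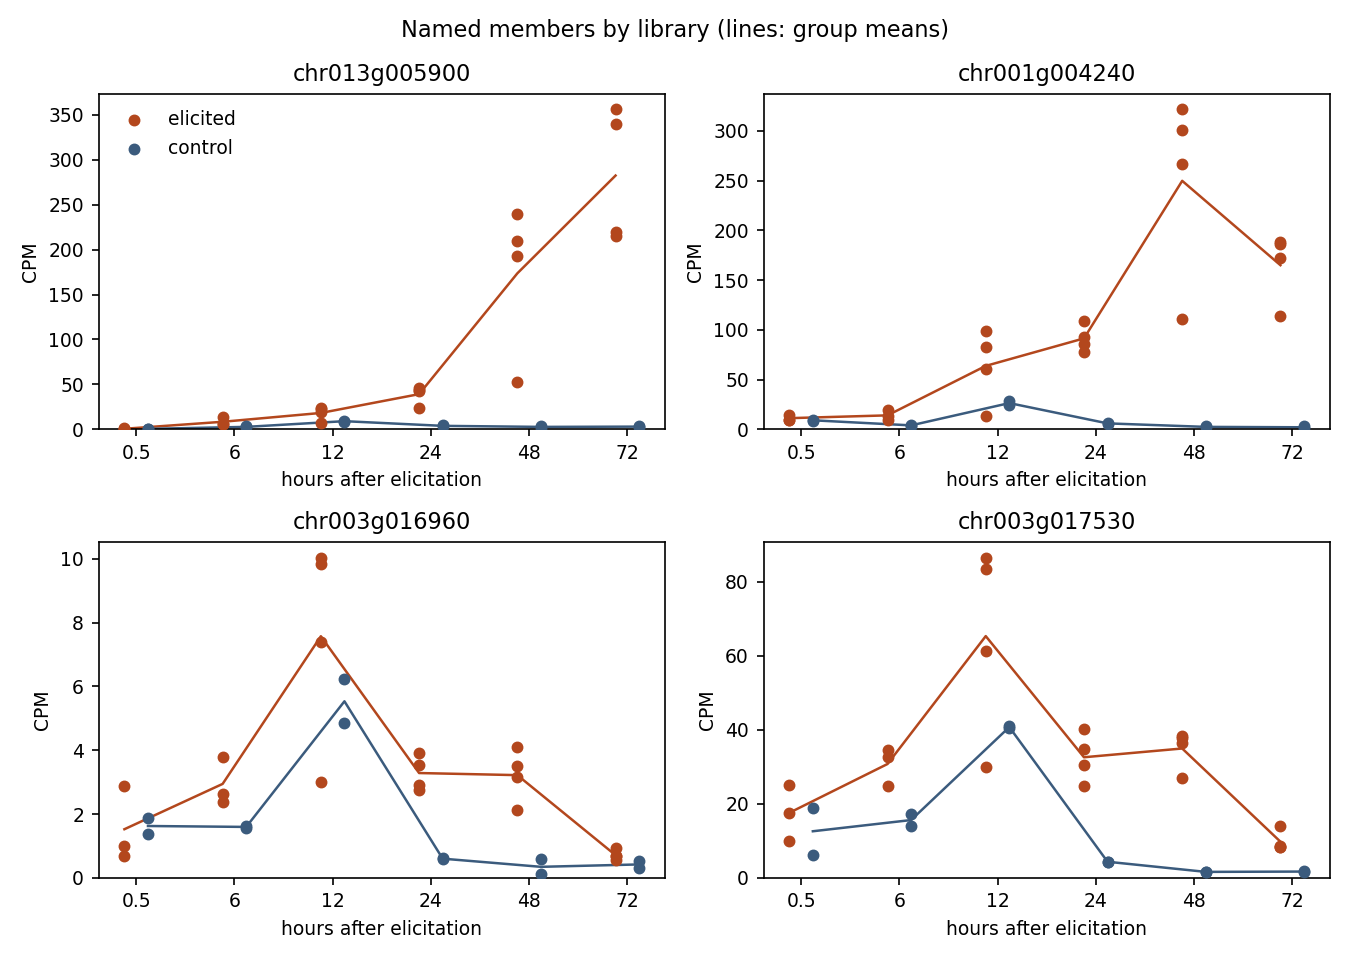
CPM (vertical axes, each from 0) of the 4 named members in every library against hours after elicitation; lines join group means. The upper pair is higher at 72 h than at 12 h in elicited cells, while the lower pair has its elicited maximum at 12 h and is lowest at 72 h among the times from 6 h on.

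Further members were singled out after their values were seen and are given by position. The most abundant member at 12 h, with 4 exons on the minus strand of chromosome 7 (13914345 to 13916166), was not called different at 72 h against 12 h in elicited cells. Elicited cells had 543, 678, 607 and 221 CPM at 12 h, 515, 491, 422 and 390.1 CPM at 24 h, 624, 567, 513 and 605 CPM at 48 h, and 453, 667, 647 and 653 CPM at 72 h. The control libraries had 425 and 400.1 CPM (12 h), 71.6 and 75.4 CPM (24 h), 15.0 and 23.1 CPM (48 h), and 5.12 and 9.13 CPM (72 h). Its elicited change from 12 to 72 h was 0.13 on the log2 scale with an SE of 0.27, and -0.13 without 12 h replicate 4.

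The member with the sharpest control peak lies on the plus strand of chromosome 9 (7867931 to 7869755, 2 exons). Its 12 h control mean was 6.67 times the next highest control mean, where the median member had 2.49 times. Elicited cells had 115, 125, 101 and 27.1 CPM at 12 h, where controls had 206 and 195 CPM, and 7.87, 7.03 and 8.62 CPM at 6 h. The elicited rise of 3.50 (SE 0.43) was the steepest among the members. At 72 h elicited cells had 36.2, 40.8, 44.1 and 40.0 CPM and controls, fixed low by the rule, 1.40 and 2.07 CPM. In elicited cells this was a called fall against 12 h, with a log2 fold change of -1.31 (SE 0.34, adjusted p = 0.00283, edgeR quasi-likelihood).

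A member of 6 exons on the plus strand of chromosome 6 (18263539 to 18266114) was late in elicited cells. At 48 h the elicited libraries had 19.6, 26.4, 8.75 and 21.8 CPM. At 12 h it had 0.919, 3.33, 1.55 and 0.669 CPM in elicited cells, against 7.77 and 12.6 CPM in controls, and its elicited 72 h minus 12 h log2 fold change was 2.68 (SE 0.39). Its highest elicited mean came at 48 h, with no overlap between the 48 and 12 h libraries. The 72 h libraries had 10.8, 11.1, 9.11 and 13.8 CPM and overlapped those of 48 h.

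The 10 members without a called rise between 6 and 12 h in elicited cells had log2 fold changes between -0.45 and 1.37 in that step. Of these 10, 3 were lower at 72 h than at 12 h (24.1% of all genes tested) and 2 higher (22.2%). A total of 3 of the 31 members passed the threshold in none of the 4 tested steps. The share of all genes that did so was not counted, so nothing is read from this number. One of these 3 members has 4 exons on the minus strand of chromosome 13 (528447 to 531689). It had 3.54, 5.38, 5.49 and 5.31 CPM at 72 h and 4.31, 4.85, 6.85 and 4.40 CPM at 12 h in elicited cells, and these groups overlapped. Its controls, chosen for the difference, had 1.56 and 0.804 CPM at 72 h, against 6.76 and 9.89 CPM at 12 h.

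Differences between elicited and control cells are given without a test, because every control mean entered the rule. The median log2 ratio of CPM + 1 over the members was 0.45 (6 h), 0.22 (12 h), 1.58 (24 h), 2.67 (48 h) and 2.32 (72 h). The corresponding medians of all genes tested lay between -0.19 and -0.07. At 6 h, 6 members were at least 2-fold higher in elicited cells (2.16% of all genes) and none 2-fold lower (0.507%), and in 17 all elicited libraries lay above both controls (12.3%). At 12 h, 4 members were at least 2-fold higher in elicited cells (3.53% of all genes) and 8 at least 2-fold lower (2.07%). Later, 25 were at least 2-fold higher after 24 h (6.06% of all genes), 27 after 48 h (8.76%) and 27 after 72 h (7.94%). None was 2-fold lower after 24 h (6.63%), 48 h (11.1%) or 72 h (9.27%). Nothing is read from these shares, since low control levels away from 12 h were required.

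At 12 h itself the 31 were split. All 4 elicited libraries lay below both controls in 10 members (40.4% of all genes tested) and above both in 1 (12%). Without elicited 12 h replicate 4, the other 3 lay above both controls in 14 members (15.1% of all genes tested) and below both in 10 (51%), and the median log2 ratio was 0.38 in place of 0.22. All elicited libraries lay above both controls in 26 members at 24 h (20.7% of all genes tested), in 29 at 48 h (20.7%) and in 29 at 72 h (24.8%). The lowest ratio at 72 h was 0.17 and the highest 6.22 on the log2 scale.

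**Figure D5:**
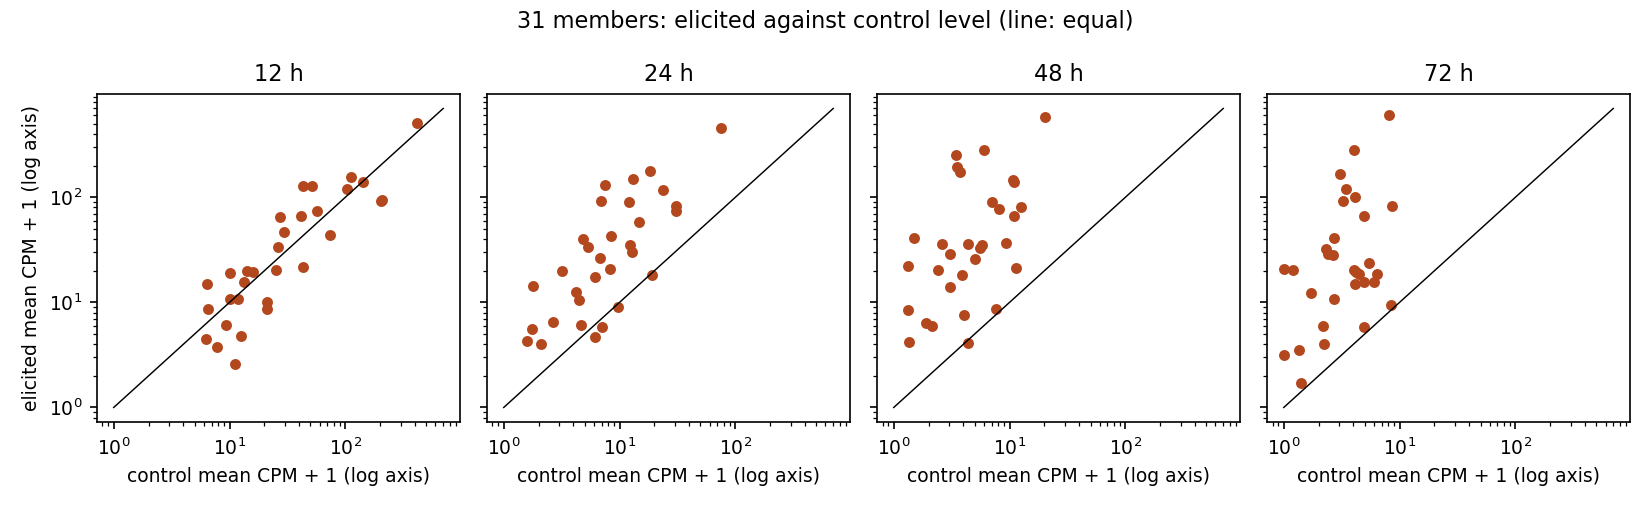
Elicited mean CPM + 1 (vertical, log axis) against control mean CPM + 1 (horizontal, log axis) of the 31 members at 12, 24, 48 and 72 h, with a line of equal levels. At 12 h the points lie on both sides of the line, and at 72 h all 31 lie above it.

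The members were spread over 14 chromosomes. Chromosome 3 and chromosome 13 held 4 members each. On chromosome 3 the 4 lay within 673 kb (20058598 to 20731524), a stretch with 91 annotated genes, 50 of them tested. Its ends are those of the outermost members, so nothing is read from its length. The last 2 of the 4 members stand next to each other and point away from each other, with 1700 bases between them. The first has 2 exons on the minus strand (20723412 to 20725617) and the other has 1 exon on the plus strand (20727318 to 20731524). The minus-strand gene of the pair had 60.4, 96.1, 92.4 and 79.2 CPM in elicited cells at 72 h and 146, 168, 149.6 and 48.9 CPM at 12 h. Its controls had 7.27 and 7.93 CPM at 72 h, against 46.6 and 37.9 CPM at 12 h. The plus-strand gene had 17.2, 23.2, 16.9 and 22.1 CPM in elicited cells at 72 h and 20.3, 16.5, 14.2 and 5.41 CPM at 12 h. Its controls had no read at 72 h and 6.87 and 3.90 CPM at 12 h. Both genes of the pair rose between 6 and 12 h in elicited cells, by 1.85 (SE 0.39) and 2.36 (SE 0.39). Neither was called lower at a later time with all libraries in the fit. For the minus-strand gene the 72 h minus 12 h log2 fold change was -0.75 (SE 0.34, adjusted p = 0.0682, edgeR quasi-likelihood). Its 72 h libraries lay below 12 h replicates 1, 2 and 3 and above replicate 4, so a kept level is not shown.

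In structure the members had a median of 3 exons, against 5 over all genes tested; 7 members had 2 exons and 7 had 3. Genes with a single exon numbered 6 (19.4%, Wilson 95% interval 9.19 to 36.3%), against 15.8% of all genes tested. The median summed exon length was 1557 bases in members and 1585 bases over all genes tested. Exon bases are shared with another gene in 1 member (10% of all genes tested).

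The limits of the rule cut through a continuum. The nearest values inside and outside were 5.26 and 4.69 CPM for the 12 h control mean, 2.01 and 1.96 for its ratio to the next control mean, 7.60 and 8.13 CPM for the 72 h control mean, and 0.48 and 0.51 for the early difference. In all 31 members both control libraries at 12 h exceeded every other control library, and in 19 both were at least 2 times every other one. With CPM on library sizes adjusted by TMM, 17 genes met the rule and 15 of them were among the 31. The TMM factors of controls were 1.11 and 1.12 at 12 h and 0.897 and 0.936 at 0.5 h, which lowers the 12 h level relative to 0.5 h. Elicited libraries at 0.5 h had factors of 0.814 to 0.875, which raises elicited over control levels at 0.5 h. How many members were lost by each limit is not given here. Of those 17 genes 13 rose between 6 and 12 h in elicited cells, against 23.4% of all genes tested (edgeR quasi-likelihood). At 72 h against 12 h, 3 were lower (24.1% of all genes) and 4 higher (22.2%). None was lower at 24 h (5.4%) or 48 h (15.1%). Without control 0.5 h replicate 2, 20 genes met the rule, 18 of them among the 31.

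A close neighbour of the group is formed by the 38 genes that met every other part of the rule but kept a control mean of at least 8 CPM at 72 h. In elicited cells 36 of these 38 rose between 6 and 12 h, against 23.4% of all genes tested. At 72 h against 12 h, 25 of them were lower (24.1% of all genes) and none higher (22.2%). Of the 31 members, 10 were lower and 5 higher. At 48 h, 8 of the 38 were lower (15.1% of all genes) and 1 higher (12.9%), where 3 of the 31 were lower and 10 higher. Elicited 12 h replicate 4 entered all these counts, and without it 15 of the 31 were lower at 72 h (21.7% of all genes in that fit). Counts of the 38 without it are not given here. The difference between the groups was not tested. A 12 h peak of the same size in elicited cells, by level and fold alone, was met by 11 genes, and 4 of these were among the 126 genes with such a peak in controls (36.4% of the 11 and 3.17% of the 126).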

How the data were processed

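The authors deposited whole-number read counts per gene, without normalization, in a table of 31401 genes with exon coordinates counted from 1; each library's column was matched by its label. Reads were handled with fastp, STAR and featureCounts, per the submitters' processing notes. The genome build, annotation, versions, settings and strand handling are, in the sources used here, not given. The summed exon length is the deposited one. A pooled long-read sample is not analysed here.

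CPM used column totals. All genes were tested with edgeR 4.0.16 under R 4.3.3, after filterByExpr (minimum count 10) and TMM scaling. The quasi-likelihood model (glmQLFit, glmQLFTest) had 12 group means over 34 libraries. Contrasts were elicited 12 h minus 6 h and 24, 48 and 72 h minus 12 h, and an F test over 6 to 72 h, with Benjamini-Hochberg adjustment over 20107 genes. Standard errors were taken from the fold change and the F statistic. The test was also run on simulated counts, which held no deviating library such as elicited 12 h replicate 4. The outcome is not given here, so nothing rests on it. DESeq2 1.42.0, RLE factors, library size alone, no filter, elicited libraries only, blocks and leaving out libraries were alternatives.

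Named genes were those with the 2 most negative and the 2 most positive elicited 72 h minus 12 h log2 fold changes among members with an elicited 12 h mean of at least 5 CPM that share no exon bases and passed the threshold. The members, lists and tests were chosen with earlier results of these data known. In 36 pairs of libraries of the same group, chi-square per degree of freedom was 2.79 to 94.7, so each library counted as 1 replicate. Intervals cover counting error only.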

Additional observations from a re-analysis of the deposited data

Results flagged for a closer look

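Among 20 groups of 4 elicited libraries examined (the 4 named members and the member median at 12, 24, 48 and 72 h), 3 held a library whose gap to the nearest other was too large a share of the group's range by Dixon's test at the 95% level. Chance flags about 1 in 20 such groups. The member median of elicited 12 h replicate 4 was 52.2% of the 12 h control mean, against 119, 131 and 131% in the others. Mal_HE_154X_1_chr013g005900 had 23.7 CPM in elicited 24 h replicate 4, against 43.2, 46.6 and 43.3 CPM. Mal_HE_154X_1_chr003g017530 had 13.9 CPM in elicited 72 h replicate 4, against 8.29, 8.48 and 8.37 CPM.

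For Mal_HE_154X_1_chr013g005900 and Mal_HE_154X_1_chr001g004240, every elicited library at 72 h lay above every elicited library at 12 h. Every control library at 72 h lay below both control libraries at 12 h. On the log2(CPM + 1) scale the elicited change exceeded the control change by 5.21 for Mal_HE_154X_1_chr013g005900 (3.88 against -1.33) and by 4.52 for Mal_HE_154X_1_chr001g004240 (1.36 against -3.16). The difference was not tested, since the rule fixed the fall in controls.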

How the results depend on the processing

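The 72 h against 12 h calls on the 4 named members kept direction and side of the threshold in all 42 alternatives. The chromosome 7 member's change at that time, not called, ran from -0.13 to 0.31 with single libraries left out, and was -0.13 without the pair named below. With any single library left out, members called higher at 12 h against 6 h numbered 20 to 25. At 24 h against 12 h 1 to 3 were higher and 2 to 6 lower, at 48 h 8 to 10 and 2 to 6, and at 72 h 4 to 5 and 9 to 15. Elicited 48 h replicate 3 was the lowest at 48 h for Mal_HE_154X_1_chr013g005900 (52.5 CPM against 193, 239 and 209.7) and Mal_HE_154X_1_chr001g004240 (111 against 266, 322 and 301). In the other 2 named members it was not the lowest, and its member median was 115%. With the pair elicited 12 h replicate 4 and 48 h replicate 3 left out, 1 member was higher and 7 lower at 24 h and 7 lower at 48 h. Shares of all genes in that fit are not given here. The rule itself gave 20 to 37 genes with single libraries left out, 11 with a 3-fold limit and 17 with TMM library sizes. With limits of 1.5 times, 2 members shared the peak and 10 fell in neither class, in place of 1 and 6; with single libraries left out these were 1 to 2 and 6 to 7. The 6 h median log2 ratio was 0.44 to 0.66 and the 12 h one 0.03 to 0.38 with single libraries left out, an alternative added after the data were seen. Combined counts without elicited 12 h replicate 4, and single-member alternatives for other steps than 72 h against 12 h, were added then too. Deviations of same-numbered elicited libraries of different times correlated at -0.19 to 0.20 (median 0.03). Differently numbered libraries correlated at -0.21 to 0.30 (median -0.01). By flask number the ranges were -0.19 to 0.30 (median 0.03) and -0.21 to 0.22 (median -0.01). The main fit did not treat libraries as paired. With a replicate block 23 members rose between 6 and 12 h, and 22 with a block by flask number. DESeq2 gave 22 for that step, and 4 higher and 10 lower at 72 h. Shares of all genes under the blocks and under DESeq2 are not given here. Without a name for any gene, no pathway list could be counted, and 2 control libraries per time limit the precision of the rule.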
